A study of Mus musculus with 9 samples.

Results

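The cytochrome P450 family and the Ah receptor were examined in TAMH cells, a mouse hepatocyte line derived from animals transgenic for TGF-alpha, which the labels give as liver cells of strain C57BL/6. The 65 genes were chosen by name: 62 cytochrome P450 genes other than Cyp51, with the Ah receptor gene Ahr, its repressor Ahrr and its target Tiparp, out of 12393 genes that the arrays name. No probe set carried the symbol Por alone, and the P450 reductase is not analysed here. Cells were kept for 2, 6 or 24 h in control culture medium, in 2 mM acetaminophen (APAP) or in 2 mM of its regioisomer AMAP, whose ring hydroxyl group is in the meta in place of the para position. Each of the 9 combinations of 3 treatments and 3 times was measured on 1 Affymetrix mouse array, and the labels state 2 culture dishes per treatment. A difference at a single time therefore has no replicate check and no p. Values are RMA log2 expression values, so that a difference of 1 is 2-fold.

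Cytochromes P450 are haem enzymes of the endoplasmic reticulum and mitochondria that insert an oxygen atom into their substrates, with electrons from the reductase Por or from adrenodoxin. Families 1 to 4 act largely on foreign compounds, fatty acids and eicosanoids, and other families build and break down sterols, bile acids, steroid hormones and vitamins. In liver, CYP2E1, CYP1A2 and CYP3A enzymes oxidise acetaminophen to the reactive quinone imine NAPQI. The Ah receptor is a ligand-activated transcription factor that binds DNA with its partner Arnt and induces Cyp1a1, Cyp1a2, Cyp1b1, Ahrr and Tiparp. The protein of Ahrr competes with the receptor for Arnt, and that of Tiparp, an ADP-ribosyltransferase, also limits the receptor.

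The promoter sequences below show the core to which the Ah receptor and Arnt bind, GCGTG, in 3 of its target genes. They also show a nuclear receptor hexamer, AGGTCA, in Cyp3a11, a CYP3A gene with a measurable signal. Each is the stretch of 250 bases before a gene start in RefSeq (build GRCm38.p6), written 5′ to 3′ along the gene, with the motif on either strand in capitals. Tiparp lies at chr3:65528197-65528446 on the plus strand, Cyp1a1 at chr9:57697363-57697612 on the plus strand, Ahrr at chr13:74292332-74292581 on the minus strand and Cyp3a11 at chr5:145879855-145880104 on the minus strand.
Tiparp: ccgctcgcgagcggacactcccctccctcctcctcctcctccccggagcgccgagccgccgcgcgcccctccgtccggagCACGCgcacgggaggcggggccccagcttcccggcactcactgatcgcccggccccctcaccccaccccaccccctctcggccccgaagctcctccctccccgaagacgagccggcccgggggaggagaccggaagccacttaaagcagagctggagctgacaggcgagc
Cyp1a1: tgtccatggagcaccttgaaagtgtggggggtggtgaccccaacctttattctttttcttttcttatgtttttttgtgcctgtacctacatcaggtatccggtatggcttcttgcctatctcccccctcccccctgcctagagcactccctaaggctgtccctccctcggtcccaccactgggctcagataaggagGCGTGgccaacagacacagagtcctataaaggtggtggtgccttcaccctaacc
Ahrr: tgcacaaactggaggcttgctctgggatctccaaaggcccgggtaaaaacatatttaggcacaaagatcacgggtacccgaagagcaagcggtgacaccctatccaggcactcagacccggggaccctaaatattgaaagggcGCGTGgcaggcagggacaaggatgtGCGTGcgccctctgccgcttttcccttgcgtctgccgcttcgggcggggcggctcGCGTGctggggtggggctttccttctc
Cyp3a11: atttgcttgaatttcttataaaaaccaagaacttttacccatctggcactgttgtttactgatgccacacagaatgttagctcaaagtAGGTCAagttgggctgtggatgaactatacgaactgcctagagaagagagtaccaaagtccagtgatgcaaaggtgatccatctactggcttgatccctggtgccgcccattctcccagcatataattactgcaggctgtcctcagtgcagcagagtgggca
Counted from the gene start, the core begins at -170 in Tiparp, at -54 in Cyp1a1 and at -107, -82 and -27 in Ahrr, and the hexamer at -162 in Cyp3a11. Windows were found for 47 of the 65 genes, and 12 of the 47 held the core in at least 1 window, 25.5% against 30.9% of all 27025 genes with a window. The hexamer was found in 12 of the 47 as well, 25.5% against 15.8% of all genes. A match is a string of letters and not a measured binding site, and the family did not hold the core in a larger share than genes at large.

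The arrays did not all behave alike. The lower quartile of the values lay at 3.92 on the 6 h APAP array, while the 24 h arrays of APAP and AMAP had 3.82 and 3.84 and the other 6 arrays 3.50 to 3.63. For dap, a bacterial control RNA, the middle minus the 3′ signal was -1.94 to -1.58 on these 3 arrays and -0.60 to -0.44 on the others. Another pair of probe sets for dap gave -1.03 to -0.42 on the 3 arrays and -0.80 to -0.60 on the others, and so did not separate them. Results at 6 and 24 h rest on these arrays except AMAP against control at 6 h, and no result at 2 h does. The part of these array differences in the results was not tested. Of hepatocyte markers, all 8 that were measured had means that reached 5.65, the median over every probe set and array, with Alb at 12.80 to 13.28. By their 9-array means, none of 5 macrophage, 5 stellate cell or 5 endothelial markers did, while 3 of 4 cholangiocyte markers did. The stellate cell marker Des, with a mean of 5.43, passed the median on the 3 arrays that stand apart, at 6.03, 5.72 and 5.71. The summed level of the 4 cholangiocyte markers was 25.69 to 29.33 over the arrays.

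Most P450 genes gave little signal in these cells. Of the 65 genes, 12 had a 9-array mean that reached this median, 18.5% against 54.2% of all genes. They were Cyp27a1, Cyp39a1, Cyp3a13, Cyp2d10, Cyp2c70, Cyp4f16, Cyp4v3, Cyp2j6, Cyp3a11 and Cyp2c68, with Tiparp and Ahr. A further 4, Cyp21a1, Cyp2d22, Cyp4f13 and Cyp2a12, reached the median on 1 or 2 arrays. The other 49 did so on no array, with a highest value of 5.02, and 25 of the 65 lay below the lower quartile on all 9. Cyp2c68, with a mean of 5.76, was just inside the threshold and Cyp21a1, with 5.60, just outside. Array signal depends on the probes as well as on the RNA, so the genes are not ranked against each other, and a dim value does not show that a transcript was absent.

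Of the 3 P450 genes named here for acetaminophen oxidation, Cyp2e1 and Cyp1a2 stayed near the floor and Cyp3a11 lay near the median. Cyp2e1 read 3.09, 3.06 and 3.06 at 2 h in control, AMAP and APAP, 3.06, 2.96 and 3.10 at 6 h, and 3.03, 3.33 and 3.42 at 24 h. All 9 values lay below the lower quartile of their array, and the higher treated values at 24 h are on arrays whose lower quartile was higher too. Cyp1a2 ranged over 3.22 to 3.68, also below the lower quartile on all 9. Cyp3a11, the main inducible CYP3A enzyme of mouse liver, read 6.21 in control, 5.80 in AMAP and 5.47 in APAP at 2 h, 6.37, 6.58 and 5.61 at 6 h, and 6.32, 5.73 and 5.85 at 24 h. The 3 control values lay within 0.16 of each other, and all 3 APAP values were below them. AMAP was below control at 2 and 24 h and above it at 6 h.

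**Figure D1:**
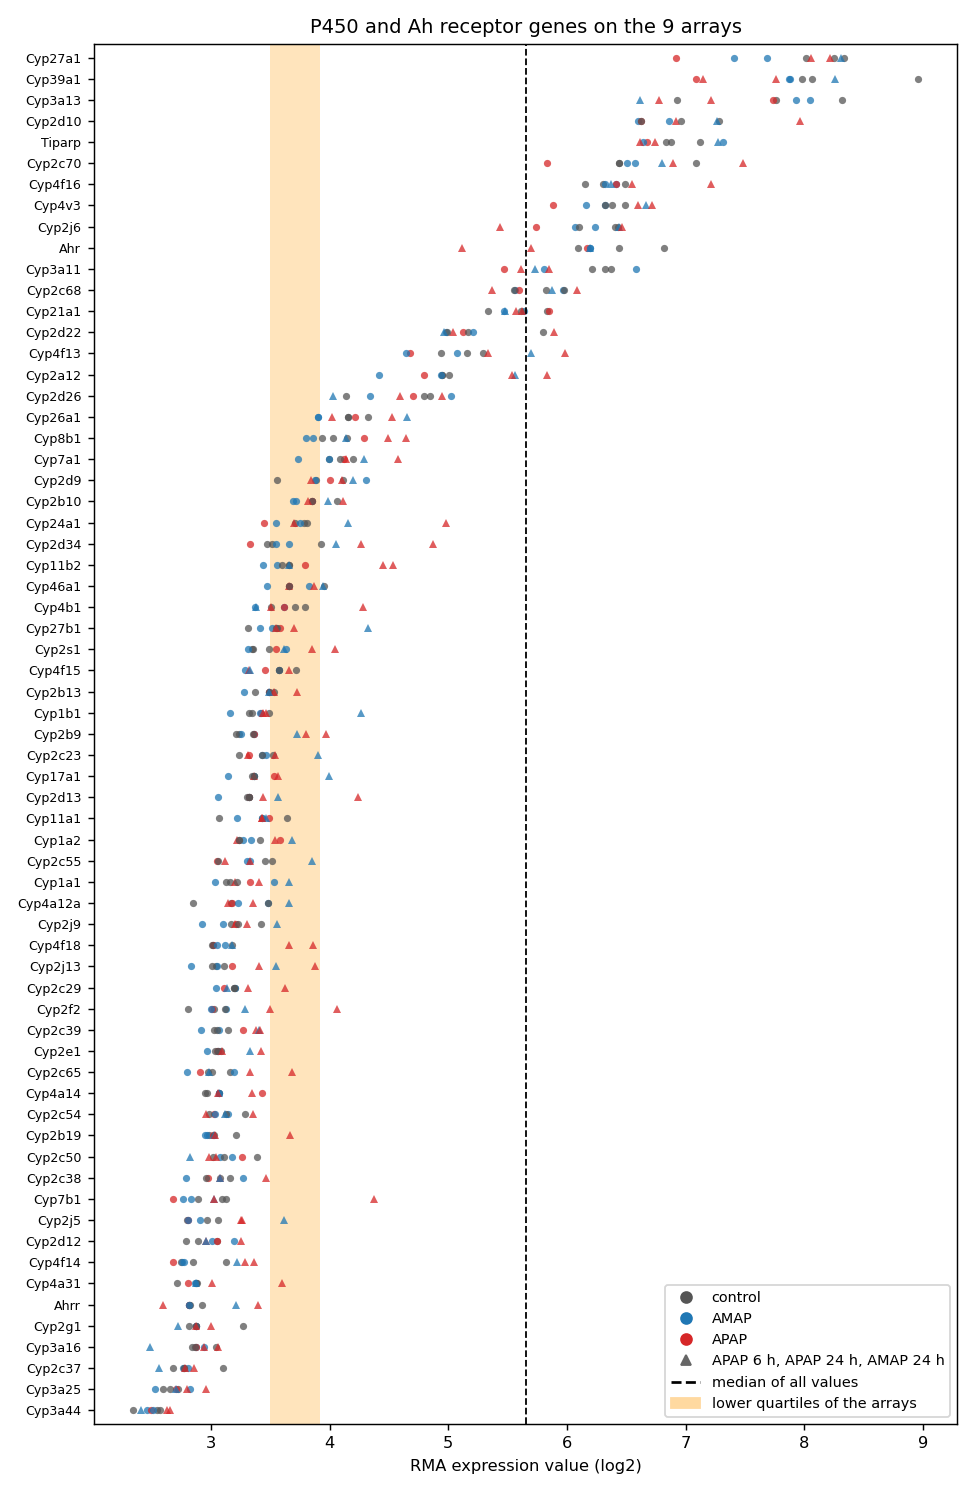
RMA log2 value (horizontal axis) of each of the 65 genes, ordered by mean, with 1 point per array, coloured by treatment; triangles mark APAP at 6 and 24 h and AMAP at 24 h, the dashed line the median of all values and the band the range of the arrays' lower quartiles. Means of 12 genes lie at or above 5.65, and Cyp2e1 and Cyp1a2 lie left of their arrays' lower quartiles on all arrays.

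By role, families 1 to 4 held 49 of the genes and 8 of them had a mean that reached the median, among them 4 of 31 in family 2, 2 of 5 in family 3, 2 of 10 in family 4 and 0 of 3 in family 1. Of 6 sterol and bile acid genes, 2 did: Cyp27a1, the mitochondrial sterol 27-hydroxylase of the acidic bile acid pathway, and Cyp39a1, an oxysterol 7α-hydroxylase. Cyp7a1, the rate-limiting enzyme of bile acid synthesis, had a mean of 4.13, Cyp8b1, the sterol 12α-hydroxylase, 4.15, and Cyp7b1, the oxysterol hydroxylase, 3.09. The 4 steroid hormone genes had means of 3.40 to 5.60, with Cyp21a1 the highest. Cyp24a1 and Cyp27b1, which break down and form active vitamin D, had means of 3.88 and 3.61, and Cyp26a1, which clears retinoic acid, 4.20. Genes of 1 P450 cluster are close copies and their probes can pick up more than 1 transcript. In 8 of the 65, 2 of them among the 12, the probe set's name marks probes shared by several transcripts or genes, and 4 probe sets naming several genes with a P450 among them were left out.

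At 2 h in APAP, the P450 genes with signal read lower than in control as a group, with Cyp27a1, Cyp39a1 and Cyp3a11 the farthest below it and Cyp3a13 level with it. All 12 genes above the median were lower, with a median difference of -0.55, against 52.1% lower and a median of -0.01 over all 6722 genes above the median. Median centring of the arrays turned 1 of the 12, Cyp3a13, from -0.02 to 0.02, and the mean of all probe sets also gave 11 lower and 1 higher. On the same arrays the 8 hepatocyte markers had a median difference of -0.41, with 1 of them 2-fold lower, and the 3 cholangiocyte markers above the median one of 1.44, with 2 of them 2-fold higher. For AMAP these medians were -0.48 and 0.37. The part of these markers in the P450 differences was not tested. Over all 65 genes, dim ones included, 34 were lower and 27 higher. AMAP at 2 h gave 9 of the 12 lower with a median of -0.17, and at each time both compounds share 1 control array. In such bulk RNA, fewer cells of a type and less RNA per cell cannot be told apart.

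Cyp27a1 was 2.51-fold lower in APAP at 2 h, at 6.92 against 8.25 in control and 7.69 in AMAP. It was the 1 gene 2-fold apart of 14 whose higher array reached the median, 7.14% against 2.07% of all genes tested in the same way. Cyp39a1 read 7.09 in APAP against 7.98 in control and 7.87 in AMAP. Cyp3a11 differed by -0.74, Cyp2j6 by -0.69, Cyp2d10 by -0.65 and Cyp2c70, which forms the muricholic acids of the mouse, by -0.61. From 2 to 6 h their controls moved by 0.16 for Cyp3a11, -0.33 for Cyp2j6, -0.65 for Cyp2d10 and 0.001 for Cyp2c70. Differences of Cyp4f16 and Cyp3a13 were small, at -0.07 and -0.02.

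In AMAP at 2 h none of 14 genes was 2-fold from control, against 1.81% of all genes. The widest difference was that of Cyp2d22, at -0.82, a gene that reached the median in control at 2 h and in APAP at 24 h alone. Its other probe set, dim on all arrays, gave -0.81. In APAP at 2 h Cyp2d22 differed by -0.67, and its control moved by -0.64 from 2 to 6 h. Cyp2d10 differed by -0.68 in AMAP and Cyp27a1 by -0.56. Between APAP and AMAP at 2 h, again none of 12 was 2-fold apart, against 1.79%. The widest differences were Cyp39a1 at -0.79, Cyp27a1 at -0.77, Cyp2c70 at -0.68 and Tiparp at -0.64. These 4 of the 12, 33.3%, were at least 1.5-fold apart between the compounds, against 8.18% of all genes, and each was lower in APAP.

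**Figure D2:**
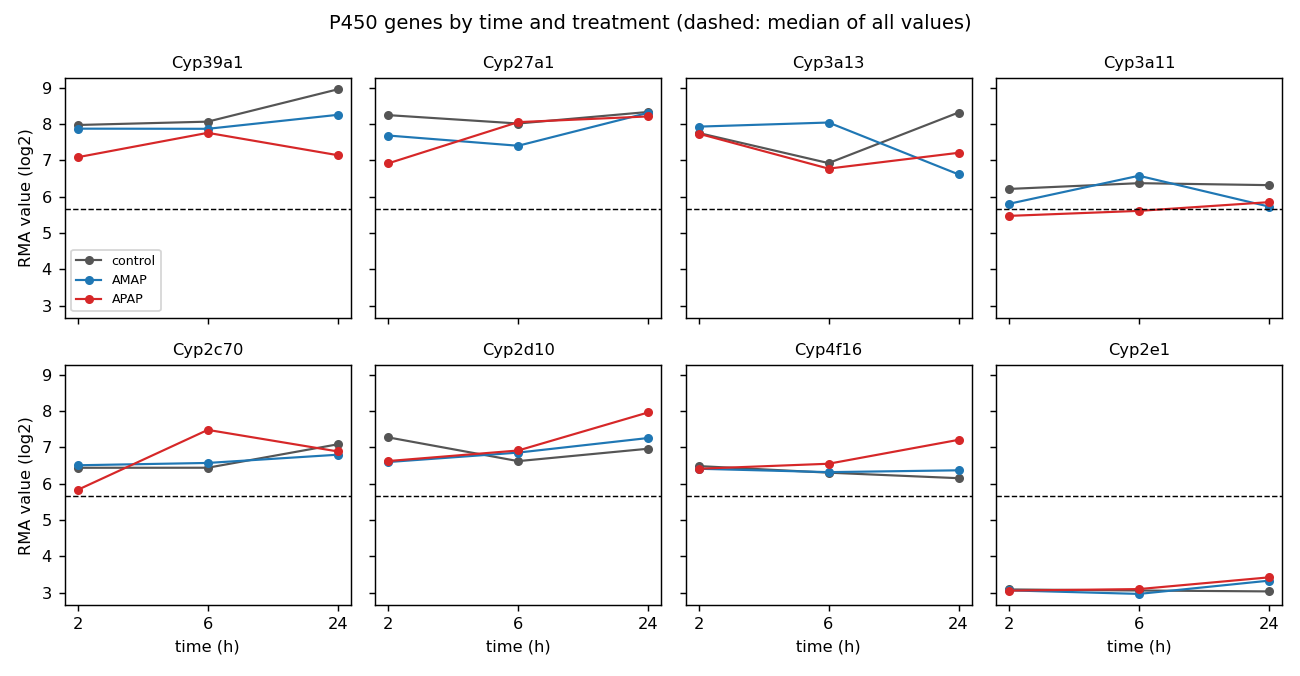
RMA log2 value (vertical axis) at 2, 6 and 24 h (horizontal axis, equal steps) of 8 P450 genes in control, AMAP and APAP, 1 array per point; the dashed line is the median of all values, 5.65. Cyp39a1 and Cyp3a11 lie below control in APAP at each time, Cyp27a1 at 2 h by 1.33 and at 24 h by 0.12, and Cyp2e1 stays between 2.96 and 3.42.

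At 6 h the differences ran in both directions, with Cyp2c70 higher and Ahr, Cyp3a11 and Cyp2j6 lower in APAP, and Cyp3a13 higher in AMAP. Cyp2c70 was 2.06-fold higher in APAP, at 7.48 against 6.44 in control and 6.57 in AMAP. It was the 1 gene of 12 that was 2-fold from control in APAP, 8.33% against 6.83% of all genes, which is near the background. Cyp3a11 lay 0.76 below control in APAP and 0.97 below AMAP, and Cyp2j6 0.66 below control and 0.80 below AMAP. Cyp27a1, lowest in APAP at 2 h, was level with control in APAP at 6 h, with a difference of 0.04, and lower in AMAP by 0.61.

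Cyp3a13, a CYP3A enzyme also found in the intestine, read 8.04 in AMAP at 6 h against 6.92 in control and 6.77 in APAP. It was the 1 gene of 12 past 2-fold for AMAP against control, 8.33% against 1.31% of all genes. Its own control values were 7.76, 6.92 and 8.32 at 2, 6 and 24 h, a spread of 1.40 that exceeds the difference of 1.12. Between APAP and AMAP at 6 h, Cyp3a13 and Ahr were lower in APAP by 1.27 and 1.08. That is 2 of 13 genes, 15.4% against a background of 11.9%. Of the 12 genes above the median 7 were lower in APAP than in AMAP and 5 higher, with a median of -0.07.

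At 24 h the largest same-time differences of the family were found. In APAP, Cyp39a1, Cyp3a13 and Ahr were lower and Cyp4f16, Cyp4f13, Cyp2d10 and Cyp2d22 higher. The other Cyp4f and Cyp2d genes were dim, with APAP differences from control between -0.26 for Cyp2d26 and 0.79 for Cyp2d34. Cyp39a1 was 3.52-fold lower in APAP, at 7.14 against 8.96 in control, with AMAP between them at 8.26. Cyp3a13 read 7.21 in APAP and 6.61 in AMAP against 8.32 in control. For Cyp39a1, Cyp3a13 and Ahr the 24 h control was the highest of the 3 controls. Their controls spread over 0.98, 1.40 and 0.73. The 24 h APAP values of Cyp39a1 and Ahr lay below all their controls, while that of Cyp3a13 lay above its 6 h control of 6.92. Cyp4f16, of a family of fatty acid and leukotriene ω-hydroxylases, read 7.21 in APAP against 6.15 in control and 6.37 in AMAP, and Cyp4f13 5.98 against 4.94 and 5.70. Cyp2d10 read 7.96 in APAP against 6.96 in control and 7.26 in AMAP, just under 2-fold from control, and Cyp2d22 5.89 against 4.99 and 4.96.

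In APAP at 24 h, 5 of 14 genes were 2-fold from control, 35.7% against 7.18% of all genes: Ahr, Cyp39a1, Cyp3a13, Cyp4f13 and Cyp4f16. Under cyclic loess or median centring the count was 3 of these, without Cyp4f13 and Cyp4f16. With the mean of all probe sets it was 3 as well, without Ahr and Cyp4f16. With dim genes kept in it was 5 of 65, 7.69% against 4.66% of all genes. At the main settings, for AMAP against control, it was 1 of 13, Cyp3a13 at -1.71, or 7.69% against 3.35%. Between the compounds it was 1 of 14, Cyp39a1 at -1.11, or 7.14% against 3.29%. For APAP against control, Cyp4f13 was tested through its APAP value of 5.98 alone, as its control of 4.94 lay below the median. Its call thus rests on the value that admitted it, on an array with a raised lower quartile. Cyp2d22 entered the 14 in the same way and was not 2-fold apart. All genes were admitted by the same rule. Among the 12 genes above the median, APAP against control gave 7 lower and 5 higher with a median of -0.16, while all genes above the median had one of 0.12. AMAP against control gave 7 lower and 5 higher with a median of -0.06.

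**Figure D3:**
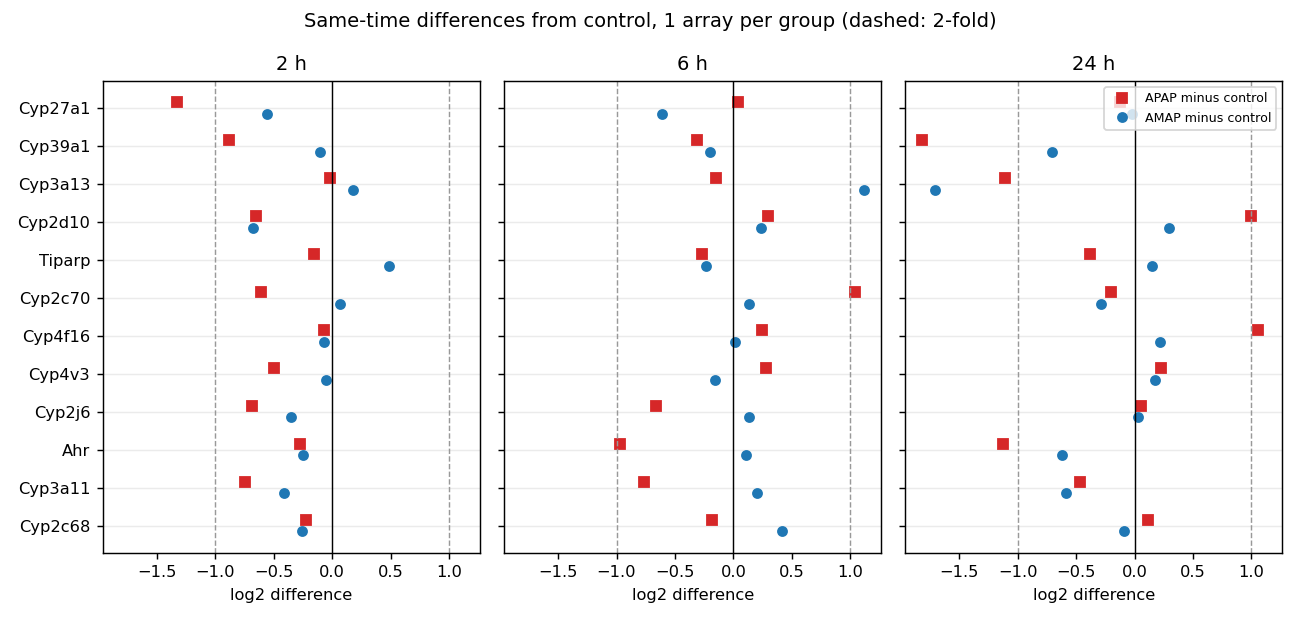
Log2 difference from control (horizontal axis) of the 12 genes above the median at 2, 6 and 24 h, for APAP (squares) and AMAP (circles), each from 2 arrays; dashed lines mark 2-fold. At 2 h all APAP squares lie at or below -0.02, and at 24 h Cyp39a1 at -1.82 and Cyp4f16 at 1.06 lie at the ends for APAP.

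On the receptor side, Ahr and Tiparp gave signal and the classical target genes did not. Ahr read 6.44, 6.19 and 6.17 in control, AMAP and APAP at 2 h, 6.09, 6.19 and 5.12 at 6 h, and 6.82, 6.19 and 5.70 at 24 h. APAP was thus lowest at 6 and 24 h, while the 3 AMAP arrays gave the same value, 6.19. The other Ahr probe set, with a mean of 4.22, was below the median on all arrays. It did not follow at 6 h, where it read 5.12 in APAP against 4.12 in control, and differed by 0.08 between APAP and control at 24 h. With the mean of both probe sets, Ahr in APAP at 6 h lay 0.13 above AMAP. The Ahr differences at 6 and 24 h thus rest on 1 of 2 probe sets.

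Tiparp had 3 probe sets. At 2 h in AMAP all 3 read higher than control, by 0.48, 0.62 and 0.66, and in APAP they differed by -0.16, 0.09 and 0.08. At 6 h in APAP all 3 read lower than control, by 0.27, 1.52 and 0.72. At 24 h they disagreed: the APAP differences were -0.38, -1.64 and 0.24, and those of AMAP 0.15, -0.84 and 0.38. The AMAP difference at 2 h was therefore shared by the probe sets, and it stayed under 2-fold in each.

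Cyp1a1 ranged over 3.03 to 3.66, Cyp1b1 over 3.16 to 4.27 and Ahrr over 2.60 to 3.40, on no array near the median. Their highest values were on AMAP at 24 h for Cyp1a1 and Cyp1b1 and on APAP at 6 h for Ahrr, which are arrays with raised lower quartiles. The Ahrr value was 2.82 on all 3 arrays of 2 h. Arnt, the partner of the receptor, ranged over 6.09 to 6.55. Nqo1 and Aldh3a1, further genes of the Ah receptor battery, had means of 3.22 and 2.84. Nfe2l2, which encodes the stress factor NRF2, was lower by 1.16 in APAP than in AMAP at 6 h. It was the 1 gene of the 4 measured in this list that was 2-fold apart in any same-time comparison. Between APAP and AMAP at 6 h, 11.9% of all genes tested were 2-fold apart.

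**Figure D4:**
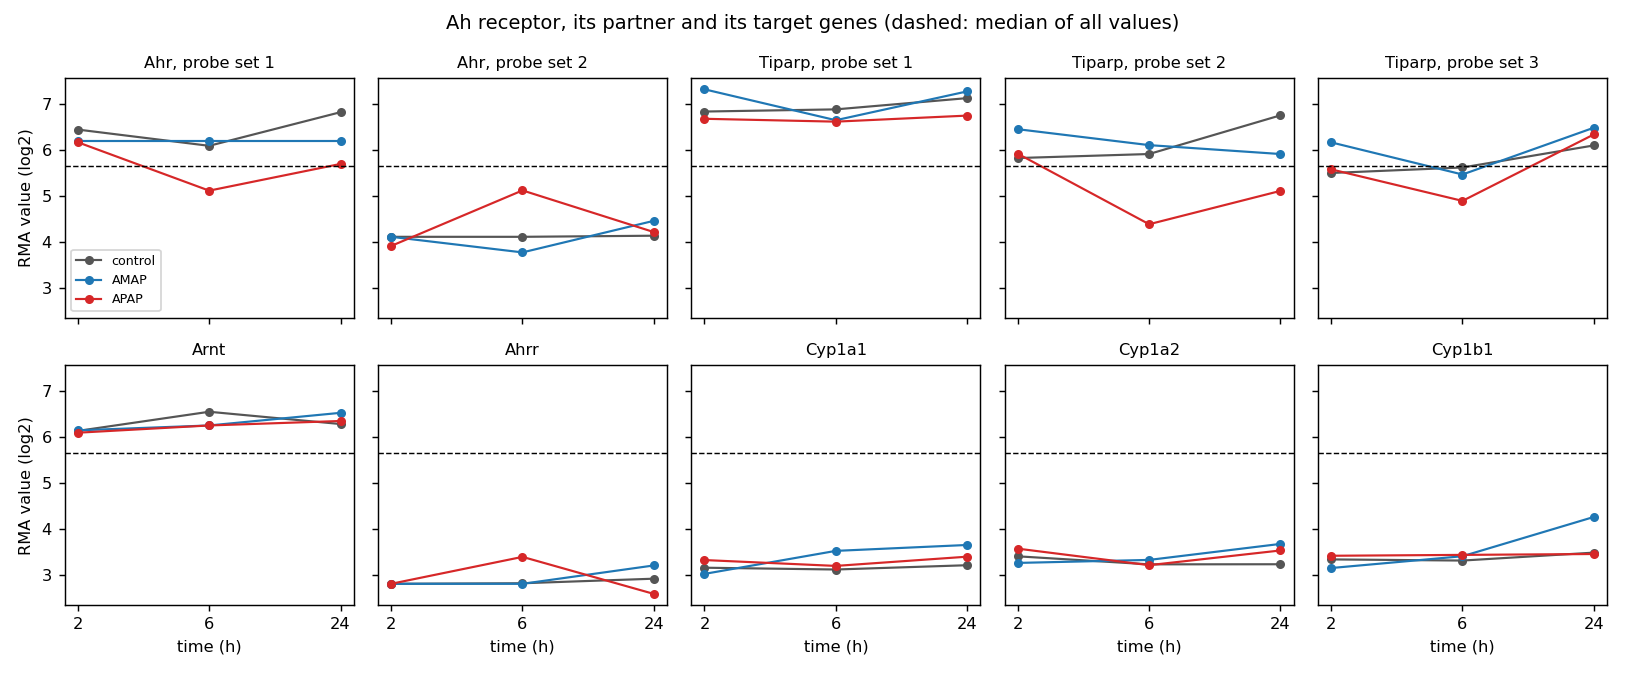
RMA log2 value (vertical axis) at 2, 6 and 24 h (horizontal axis, equal steps) of the 2 probe sets of Ahr, the 3 of Tiparp, and of Arnt, Ahrr, Cyp1a1, Cyp1a2 and Cyp1b1, by treatment, 1 array per point; the dashed line is the median of all values. The Ahr probe sets go opposite ways in APAP at 6 h, and Ahrr, Cyp1a1, Cyp1a2 and Cyp1b1 stay at or below 4.27.

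Genes that serve the P450 system were examined as lists. For electron supply, all 5 measured genes were above the median, with the haem protein Cyb5a at 10.29 to 10.91 and the P450-binding protein Pgrmc1 at 10.72 to 11.34. None was 2-fold apart in any of the 9 comparisons, in which 1.31% to 11.9% of all genes tested were. Cyb5a was lower than control in APAP at 2, 6 and 24 h, by 0.50, 0.39 and 0.42, and Pgrmc1 by 0.54, 0.39 and 0.31. Cyb5b, the form of the outer mitochondrial membrane, was lower in AMAP at 2 h by 0.48.

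All 10 measured genes of haem synthesis and loss were above the median. Alas1, the rate-limiting enzyme of haem synthesis, ranged over 7.56 to 8.07 and differed from control by no more than 0.50. Hmox1, which degrades haem, was higher in APAP than in AMAP at 6 h by 1.08, and Cpox, of haem synthesis, was lower by 1.40. At 24 h in APAP, Blvrb, a biliverdin reductase, was 1.47 above control and Uros, of haem synthesis, 1.04. These were the 2 genes of the 10 that were 2-fold from control at any time. In APAP at 24 h 7.18% of all genes tested were 2-fold from control, and 11.9% were 2-fold apart between APAP and AMAP at 6 h.

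Of 10 measured receptors and factors that regulate P450 genes, 7 were above the median. Nr1i2 and Nr1i3, which encode the drug sensors PXR and CAR, were not, with means of 3.61 and 3.84. Hnf4a, which maintains hepatocyte genes, differed by -0.66 in AMAP and -0.49 in APAP at 2 h, and Foxa2 by -0.99 and -0.64. Ppara, the fatty acid receptor that drives Cyp4a genes, was higher than control by 1.08 in APAP at 2 h and by 1.55 in AMAP at 6 h. It was the 1 gene of this list to pass 2-fold in any same-time comparison. Of all genes tested, 2.07% were 2-fold from control in APAP at 2 h and 1.31% in AMAP at 6 h. Between APAP and AMAP the Ppara differences were 1.12, -1.26 and 1.25 at 2, 6 and 24 h. There 1.79%, 11.9% and 3.29% of all genes were 2-fold apart. Nr1h4, the bile acid receptor, was higher in AMAP by 0.76 at 6 h.

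A model of all 9 arrays estimated the part of each treatment difference that the 3 times share, with time as a block and 4 residual degrees of freedom. No gene of the family passed limma's test, with 0 of 12 at a Benjamini-Hochberg adjusted p under 0.05 in each of the 3 contrasts. Of all 6722 genes tested the share called was 0% for APAP against control, 0% for AMAP against control and 0% for APAP against AMAP. At an unadjusted p under 0.05 there were 3 of 12 for APAP against control, 25.0% against 7.68% of all genes, 0 of 12 for AMAP against control against 0.446%, and 2 of 12 for APAP against AMAP, 16.7% against 4.22%. None of the 24 companion genes tested was called in any contrast, and among them 3 for APAP against control and 1 for APAP against AMAP had an unadjusted p under 0.05.

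For APAP against control the lowest estimates were those of Cyp39a1, Ahr and Cyp3a11, each lower at 3 of 3 times. Cyp39a1 had a difference of -1.004 ± 0.27 (SE, n = 3 arrays per treatment) with a limma adjusted p of 0.634. Ahr had -0.79 ± 0.23 and Cyp3a11 -0.66 ± 0.22, with the same adjusted p. The Ahr estimate came from 1 of its 2 probe sets. The other, dim on all arrays, differed by -0.20, 1.01 and 0.08 at 2, 6 and 24 h. Without the 3 arrays that stand apart, which leaves APAP with its 2 h array alone, Cyp39a1 lay at -0.91, Cyp3a11 at -0.59, Ahr at -0.19 and Cyp27a1 at -1.34, against -0.47 for Cyp27a1 on all arrays. Leaving out 1 time moved Cyp39a1 to -0.60 without 24 h and to -1.35 without 6 h, and Cyp27a1 to -0.04 without 2 h and to -0.73 without 6 h. Over the same settings Ahr lay between -1.05 and -0.62 and Cyp3a11 between -0.75 and -0.61.

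Between the regioisomers, at the same dose over the same times, Cyp39a1 was lower in APAP by 0.67, with a 95% interval of -1.27 to -0.07, and Ahr by 0.53, with -1.06 to -0.01. Tiparp was lower in APAP at 3 of 3 times, with -0.40 and an interval of -0.83 to 0.03. The limma adjusted p was 0.870 for each of these 3. All 3 Tiparp probe sets were lower in APAP than in AMAP at each time, and their mean gave an estimate of -0.62. Ahr was not fitted with the mean of its probe sets. Without the 3 arrays the Ahr difference was -0.12, and without the 6 h arrays it was -0.26. Leaving out 1 time gave -0.95 to -0.45 for Cyp39a1 and -0.58 to -0.28 for Tiparp. For Cyp27a1 the estimate was -0.07 with an interval of -0.72 to 0.58, and for Cyp3a13 -0.29 with -1.27 to 0.69. A value 1.5-fold lower in APAP lay within both intervals, and one 1.5-fold higher within that of Cyp3a13 alone. Without the 3 arrays the Cyp27a1 estimate was -0.76, and without the 2 h arrays it was 0.28. Cyp3a13 lay at 0.20 without the 6 h arrays and at -0.73 without the 24 h arrays. For AMAP against control the largest estimate was that of Cyp27a1, -0.40 ± 0.29, lower at 3 of 3 times, with a limma adjusted p of 0.99992.

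**Figure D5:**
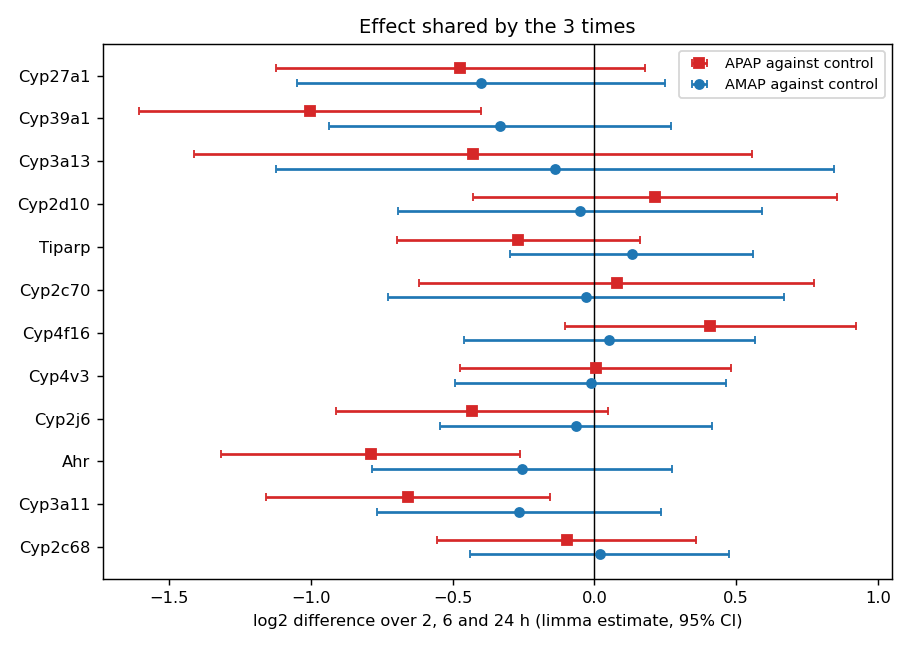
Limma estimates of the log2 difference from control over the 3 times (horizontal axis) for the 12 genes above the median, with 95% confidence intervals, for APAP (squares) and AMAP (circles), n = 3 arrays per treatment. The unadjusted intervals of Cyp39a1, Ahr and Cyp3a11 for APAP lie below 0, and each AMAP interval includes 0.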

How the data were processed

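The authors deposited 1 log2 value for each probe set and array; the submitters' processing notes name RMA and Affymetrix Expression Console, without versions. RMA equalises probe intensity distributions, hides a change in total RNA and narrows differences of dim probe sets. Of 22690 probe sets, 64 controls were set aside. The platform annotation gave 1 symbol for 20380, several for 691 and none for 1555. A gene is its 1-symbol probe set with the highest mean over the 9 arrays.

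Arrays of the same time were subtracted, and a gene was called 2-fold apart where the difference reached 1 and the higher array reached 5.65. Limma 3.58.1 in R 4.3.3 was fitted on all 6722 genes with a mean at that level, with treatment and time as terms and a Benjamini-Hochberg adjusted p under 0.05 as the threshold. It treats treatment by time as error. The arrays stand for separate times, and their number limits the precision.

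Named genes were the 12 genes above the median, those 2-fold apart at any time, and the receptor and acetaminophen genes. Of each companion list (electron supply, haem synthesis and loss, Ah receptor partners and battery, and receptors and factors of P450 genes) the 3 widest were named, with Arnt, Alas1, Nr1i2, Nr1i3 and Hnf4a. Other genes, Uros among them, were named after their values were seen. Members and lists were chosen with earlier results of these data known. Alternatives were a 1.5-fold threshold, no filter, the mean of all probe sets, cyclic loess, median centring, other variance priors, no time block, fewer arrays and leaving out each time.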

Additional observations from a re-analysis of the deposited data

Results flagged for a closer look

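Some genes differed by at least 1.5-fold in opposite directions at 2 times under the same contrast. Each value below is the distance between those differences in log2 units, from 1 array per group, and the distances were not tested. Cyp3a13 stood farthest apart for AMAP against control, 1.12 at 6 h and -1.71 at 24 h, a distance of 2.82. For APAP against AMAP it lay at -1.27 at 6 h and 0.60 at 24 h, a distance of 1.87. Its control arrays spread over 1.40. Cyp2d10 in APAP against control lay at -0.65 at 2 h and at just under 2-fold higher at 24 h, a distance of 1.65. Cyp2c70 in APAP against control went from -0.61 at 2 h to 1.04 at 6 h, also 1.65 apart, and against AMAP from -0.68 to 0.91, a distance of 1.59. Cyp27a1 in APAP against AMAP went from -0.77 at 2 h to 0.65 at 6 h, a distance of 1.42. Each of these pairs includes at least 1 of the 3 arrays with raised lower quartiles.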

How the results depend on the processing

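The count of 12 genes at or above the median was 10 with the mean of all probe sets, 16 with any array, 8 with all 9 arrays and 12 on the 6 arrays that do not stand apart. At 1.5-fold in place of 2-fold, the genes apart at 2 h were 7 of 14 for APAP against control, 2 of 14 for AMAP against control and 4 of 12 between the compounds, against 10.4%, 6.66% and 8.18% of all genes. At 6 h they were 5 of 12, 2 of 12 and 8 of 13, against 25.3%, 9.39% and 35.8%. At 24 h they were 7 of 14, 5 of 13 and 5 of 14, against 24.4%, 17.4% and 15.5%. With dim genes kept in, APAP at 6 h gave 4 of 65 against control and 9 of 65 against AMAP, 6.15% and 13.8%, near the 6.42% and 11.3% of all genes. At 24 h APAP against control then gave 5 of 65, 7.69% against 4.66% of all genes. The mean of all probe sets gave 1 for APAP against AMAP at 6 h and 3 for APAP against control at 24 h, where cyclic loess and median centring each gave 3. The 3 genes were Cyp39a1, Cyp3a13 and Cyp4f13 with the mean of all probe sets. Under cyclic loess and under median centring they were Ahr, Cyp39a1 and Cyp3a13. Ahr in APAP against AMAP at 6 h turned from -1.08 to 0.13 with the mean of all probe sets, since the other probe set went the opposite way. It was the only called difference of a named gene that changed sign under the mean of probe sets, cyclic loess or median centring.

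In the fit over the 3 times, 0 genes of the family were called by limma in each contrast under each alternative run. At an unadjusted p under 0.05 the alternatives gave 2 to 6 for APAP against control, 0 to 2 for AMAP against control and 1 to 4 for APAP against AMAP, while 5.59% to 8.49%, 0.0893% to 3.47% and 3.08% to 6.02% of all genes did so. The highest counts for APAP, 6 and 4, came with dim genes kept in, where they are 9.23% and 6.15% of 65 genes against 7.28% and 4.89% of all genes. The 2 for AMAP came without the 3 arrays that stand apart. With 1 array per group, no difference at a single time can be set against replicate error.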

Other observations

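The 49 genes that reached the median on no array were not evenly spread over the arrays. The highest value was on APAP at 6 h for 18 of them, on AMAP at 24 h for 11 and on APAP at 24 h for 11, and on the other 6 arrays together for 9. Their median was 3.43 on APAP at 6 h, 3.49 on AMAP at 24 h and 3.44 on APAP at 24 h, against 3.19 to 3.27 elsewhere. These are the arrays with raised lower quartiles. Of all 12393 genes, 41.0% were lower than control in APAP at 6 h, 30.6% in APAP at 24 h and 30.4% in AMAP at 24 h. The count of highest arrays was not made for genes other than these 49. Among these dim genes the largest differences from control in APAP at 6 h, chosen after they were seen, were those of Cyp7b1 at 4.37 against 3.13 in control, Cyp24a1 at 4.98 against 3.79 and Cyp2f2, a lung and liver P450, at 4.06 against 2.81. The other probe sets of Cyp7b1 and Cyp24a1 read 2.82 and 3.03 on that array, against 2.74 and 3.07 in control.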
